A study of Mus musculus with 9 samples.

Results

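The glycolysis and hypoxia response genes described here are 39 genes chosen by symbol: the enzymes and transporters that take glucose to lactate, the proteins that sense oxygen for hypoxia-inducible factor (HIF), and well-known HIF target genes. All 39 were among the 16399 genes in the deposited values. Expression was given in TPM (transcript abundance scaled for transcript length and to the same total in each library), and 37 of the 39 reached at least 1 TPM in at least 3 of the 9 libraries and so entered the 11287 genes tested. Ldhb and Adm did not. The libraries came from bulk RNA-seq of 3 mouse cell lines with 3 replicates each. MC38-P is the parental MC38 colon carcinoma line. MC38-LM3a and MC38-LM3b were derived from it independently by 3 rounds of injection into the spleen of C57BL/6 mice, resection of liver lesions, dissociation with collagenase and expansion in culture. The injected cells carried a GFP-luciferase reporter, and the lines were kept in high-glucose DMEM with serum, so the values describe cultured cells with ample glucose, and each derivative is 1 line. The comparisons ask which of these genes differ between the liver metastatic derivatives and the cells they came from, and whether the derivatives differ from each other.

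Glycolysis splits glucose into pyruvate, and lactate dehydrogenase then turns pyruvate into lactate, which leaves the cell through monocarboxylate transporters. HIF-1, a pair of HIF-1α (Hif1a) and ARNT, raises transcription of most of these enzymes when oxygen is low. In oxygenated cells the prolyl hydroxylases Egln1 and Egln3 mark HIF-1α for the ubiquitin ligase of Vhl, so HIF-1α is controlled mainly at the protein level, and its activity is usually read from the transcripts of its targets. Many tumours, colon carcinoma among them, run glycolysis at a high rate even with oxygen present.

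Between 10875 and 11218 genes reached 1 TPM in each library, and r across genes was 0.969 to 0.997 for any pair. The files give no read counts, so the depth is unknown. Replicates are called biological, with no statement that they are separate cultures, so p-values measure only the spread between these libraries. Along transcript length, MC38-P replicate 3 and MC38-LM3a replicate 3 stood apart from the other libraries of their groups. Spearman's correlation between length and the deviation from the group mean, across 11096 genes, was 0.51, 0.41 and -0.62 in MC38-P replicates 1 to 3. It was -0.55, -0.51 and 0.64 in MC38-LM3a replicates 1 to 3, and between -0.013 and 0.016 in MC38-LM3b. Deviations within a group are tied to each other, so they do not tell which libraries are the unusual ones. MC38-P replicate 3 and MC38-LM3a replicates 1 and 2 had 10901, 10914 and 10875 genes at 1 TPM or more. The other libraries had 11069 to 11218. The deviations of MC38-P replicate 3 correlated across genes with those of MC38-LM3a replicates 1 and 2 (r = 0.48 and 0.49) and with that of MC38-LM3a replicate 3 at r = -0.66, and those of MC38-LM3a replicate 3 correlated with MC38-P replicates 1 and 2 at r = 0.55 and 0.32. Bnip3 was at 47.2 TPM in MC38-P replicate 3 and 89.7 TPM in MC38-LM3a replicate 3, Ndufa4l2 at 0.26 and 4.49 TPM, and Eno3 at 72.0 and 29.4 TPM. These genes separate all libraries of the labelled groups and were picked for that, so they cannot check the labels of these 2 libraries. Members whose call against MC38-P changes without these 2 libraries are given with and without them. The libraries then left in MC38-P deviated toward long transcripts and those left in MC38-LM3a toward short ones. In that setting, differences that involve these lines cannot be told apart from the length deviation. Against MC38-P, 63.6% of all tested genes then passed in MC38-LM3a, beside 28% with all libraries. For members whose call changes when the test has offsets for GC content and transcript length, the value with the offsets is given too. The labels call the cells colon epithelial. Krt8 and Krt18, keratins of simple epithelia, were at 707 to 1206 TPM in the 9 libraries, while Cdh1 (E-cadherin) was at most at 0.08 TPM and Cdx2, a colonic transcription factor, between 0.28 and 2.86 TPM. Defining markers of liver and blood cells were at or near 0, with Alb at most at 0.29 TPM and Csf1r at most at 0.14 TPM. Of the 9 hepatocyte markers listed in the files only Apoa2 reached 1 TPM, and the list summed to 1.82 to 4.33 TPM. The 3 T and B cell markers listed summed to at most 0.49 TPM and the 7 endothelial ones, mainly Egfl7, to 14.6 to 20.4 TPM. Of the 4 macrophage markers listed, Cd68 and Cd14 reached 1 TPM, and the list summed to 38.8 to 40.2 TPM in MC38-P, 48.8 to 53.7 TPM in MC38-LM3a and 55.6 to 60 TPM in MC38-LM3b. The stellate cell and fibroblast list, mainly Col3a1 and Col1a1, summed to 136 to 174, 54.8 to 73.4 and 66.5 to 73.5 TPM, and the epithelial list to 2002 to 2317, 1591 to 1812 and 1585 to 1629 TPM. Colonic epithelial markers summed to at most 3.99 TPM. Their part in the results on the members was not tested.

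The members did not move as a block. Against MC38-P, 10 of the 37 tested members rose and 4 fell in MC38-LM3a (adjusted p under 0.05, limma on log2(TPM + 1)), where 14.1% of all tested genes rose and 13.8% fell. In MC38-LM3b, 13 members rose and 4 fell, where 35.6% of all tested genes rose and 11.2% fell, so the share of members that rose there, 35.1%, was close to the background. With each library centred on the median of the tested genes, 8 members rose and 6 fell there, against 22.9% and 26.4% of all tested genes. The median log2 fold change of the members was 0.12 in MC38-LM3a, beside 0.00 for all tested genes, and 0.18 in MC38-LM3b, beside 0.21. Values in MC38-LM3b are therefore to be read beside 0.21, while the calls themselves were tests against 0. Both derivatives shared 9 members that rose (Ndufa4l2, Bnip3, Hk1, Pfkl, Bnip3l, P4ha1, Gpi1, Slc2a1 and Pgk1), with 13.3% of all tested genes, and 4 that fell (Eno2, Slc16a1, Pfkm and Gapdh), with 9.07%. These comparisons share the MC38-P libraries. Ndufa4l2 was the only member that was also past a log2 fold change of 1, in both derivatives, a limit that 1.39% of tested genes passed upward in MC38-LM3a and 2.76% in MC38-LM3b. Ndufa4l2 reached 1 TPM only in the 6 derivative libraries, so it entered the test through the groups in which it was high. In bulk RNA, fewer cells that express a gene and less of its RNA per cell cannot be told apart.

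**Figure D1:**
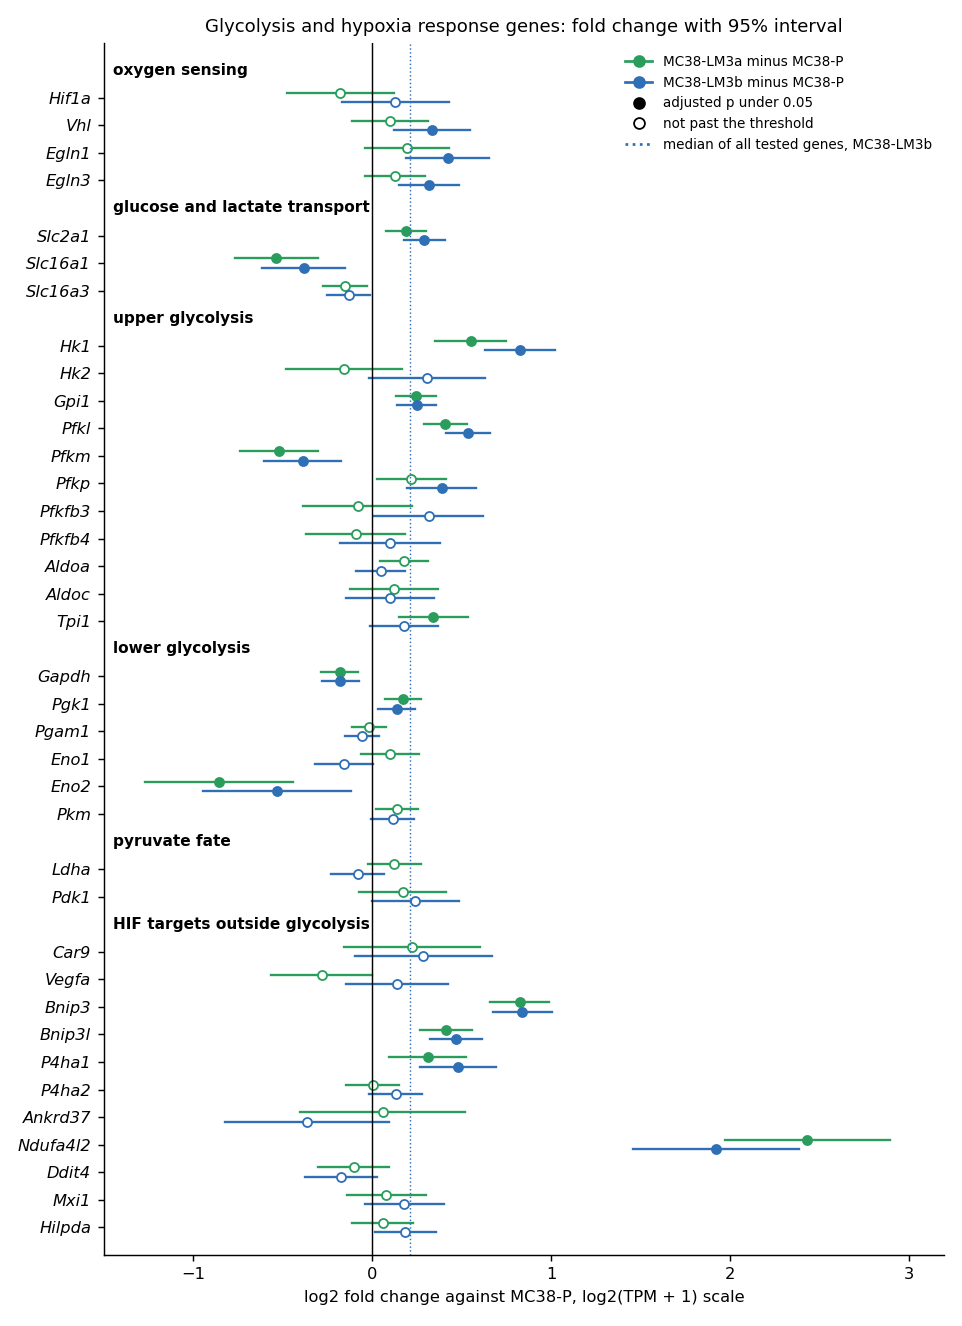
Log2 fold change of the 37 tested members against MC38-P, on the log2(TPM + 1) scale, with 95% intervals from limma (green MC38-LM3a, blue MC38-LM3b, n = 3 per line). Filled points have an adjusted p under 0.05, and the dotted line marks the median of all tested genes in MC38-LM3b, 0.21. Ndufa4l2 lies far to the right at 2.43 and 1.92, most members lie between -0.5 and 0.5, and the members that fell in both lines are Slc16a1, Pfkm, Gapdh and Eno2.

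The promoters of these genes differ in whether they hold the core of the HIF binding site. Windows of 250 bases before the annotated start (RefSeq, GRCm38.p6) were found for 37 of the 39 members, all but Ndufa4l2 and Bnip3l, and were searched on both strands for ACGTG, the core that HIF-1 binds. Some genes have several annotated starts, and a gene was counted if any of its windows held the motif. It stood in 23 of the 37 (62.2%), against 25.7% of the tested genes with such a window and 18.5% of all genes with one. Members with it were found in each direction: 4 of 7 that rose in both derivatives, 2 of 4 that fell and 17 of 26 others. GCGTG, the other common form of the core, was in 64.9% of the members with a window, 51.3% of the tested genes and 30.9% of all genes. CACGTG contains ACGTG on both strands, so it counts as 2 matches, and it was in 16.2% of the members' windows, 9.94% of those of tested genes and 6.86% of all. The sequences are shown to set a member that rose, a member that fell and a member that did neither side by side, 5′ to 3′ on the strand of the gene, with ACGTG or its reverse complement CACGT in capitals. Bnip3 is the member with the largest rise among those with a match, Slc16a1 the one with the largest mean fall over both derivatives, and Ldha, picked after its values were seen, holds 5 matches in the window shown and none in that of its other start, and passed the threshold in neither derivative. Bnip3 lies on the minus strand at chr7:138909507-138909756, Slc16a1 on the plus strand at chr3:104638414-104638663 and Ldha on the plus strand at chr7:46845554-46845803, and 13 bases of the Bnip3 window overlap an annotated exon.
Bnip3: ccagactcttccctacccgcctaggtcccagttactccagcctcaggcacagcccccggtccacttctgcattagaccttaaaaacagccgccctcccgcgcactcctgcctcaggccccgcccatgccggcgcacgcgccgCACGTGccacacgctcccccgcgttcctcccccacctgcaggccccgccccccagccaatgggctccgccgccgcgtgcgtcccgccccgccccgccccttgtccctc
Slc16a1: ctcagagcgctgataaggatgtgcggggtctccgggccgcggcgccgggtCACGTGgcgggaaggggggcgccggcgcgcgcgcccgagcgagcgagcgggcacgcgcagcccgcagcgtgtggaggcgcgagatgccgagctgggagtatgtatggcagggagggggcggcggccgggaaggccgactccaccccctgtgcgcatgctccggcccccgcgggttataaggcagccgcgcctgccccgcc
Ldha: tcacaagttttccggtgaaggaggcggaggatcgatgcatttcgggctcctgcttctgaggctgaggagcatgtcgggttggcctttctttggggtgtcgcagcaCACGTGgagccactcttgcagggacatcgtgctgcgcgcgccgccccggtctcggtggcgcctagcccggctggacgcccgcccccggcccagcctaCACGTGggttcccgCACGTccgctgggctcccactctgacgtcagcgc

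Of the 4 oxygen-sensing genes, 3 rose in MC38-LM3b (limma), where 35.6% of all tested genes rose, and none passed the test in MC38-LM3a, where 14.1% rose. Hif1a (NCBI Gene 15251), the oxygen-regulated subunit of HIF-1, measured 124, 115 and 92.2 TPM in MC38-P, 87.3, 85.8 and 121 TPM in MC38-LM3a and 122, 118 and 119.7 TPM in MC38-LM3b. The ranges of all 3 lines overlapped, and replicate 3 was the lowest of MC38-P and the highest of MC38-LM3a. Its log2 fold change was -0.18 (95% interval -0.48 to 0.12, adjusted p = 0.376) in MC38-LM3a and 0.13 (-0.17 to 0.43, adjusted p = 0.439) in MC38-LM3b. Without MC38-P replicate 3 and MC38-LM3a replicate 3, Hif1a fell by 0.46 (adjusted p = 1.96e-05) in MC38-LM3a and was at 0.01 in MC38-LM3b, and with the GC and length offsets it was past the threshold and lower in both, at -0.19 and -0.15. The direction in MC38-LM3b thus flips with the correction.

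Vhl, the substrate-binding subunit of the ligase that degrades HIF-1α, rose in MC38-LM3b by 0.33 (SE 0.0956, adjusted p = 0.0162), from 19.1, 17.5 and 16.7 TPM to 24.4, 22.7 and 20.9 TPM, while MC38-LM3a at 18.0, 19.8 and 19.6 TPM overlapped the parental libraries. Egln3, a prolyl hydroxylase that is itself induced by HIF, was at 51.0, 48.6 and 43.6 TPM in MC38-P, 50.2, 51.8 and 54.5 TPM in MC38-LM3a and 58.6, 59.4 and 60.6 TPM in MC38-LM3b. Every MC38-LM3b library lay above every other library, and the rise of 0.32 passed the test (SE 0.076, adjusted p = 0.00685), whereas the value of 0.13 in MC38-LM3a did not (adjusted p = 0.245). Egln1, the main hydroxylase of HIF-1α, rose by 0.42 in MC38-LM3b (adjusted p = 0.00879) and stood at 0.20 in MC38-LM3a (adjusted p = 0.204). With the GC and length offsets both hydroxylases also passed in MC38-LM3a, Egln1 at 0.24 (adjusted p = 0.00229) and Egln3 at 0.11 (adjusted p = 0.0449). When each library was centred on the median of the tested genes, Vhl and Egln3 in MC38-LM3b were at 0.11 and 0.09, short of the threshold. The median of the 4 genes was 0.33 in MC38-LM3b and 0.11 in MC38-LM3a, and the derivatives themselves differed in none of them past the threshold (adjusted p from 0.12 to 0.139). Without replicate 3 of MC38-P and MC38-LM3a, all 4 were higher in MC38-LM3b than in MC38-LM3a, as were 65% of all tested genes.

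Of the transporters, the glucose importer rose and a lactate carrier fell. Slc2a1 (GLUT1, NCBI Gene 20525), the main glucose importer of most cultured cells, measured 277, 269 and 261 TPM in MC38-P, 305, 299.6 and 317 TPM in MC38-LM3a and 326, 336 and 329 TPM in MC38-LM3b. All 6 derivative libraries lay above the parental ones. Slc2a1 rose by 0.19 (SE 0.0514, adjusted p = 0.0191) and 0.29 (adjusted p = 0.00128), which is 1.14 and 1.23 times the parental mean TPM. Centred on the median of all genes, the values were 0.19 and 0.07 and neither passed the test, and with the offsets the value in MC38-LM3b was 0.12 (adjusted p = 0.0827).

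Slc16a1 (MCT1, NCBI Gene 20501), a monocarboxylate transporter that carries lactate and pyruvate in either direction, measured 229, 220.0 and 186 TPM in MC38-P, 131, 137 and 171 TPM in MC38-LM3a and 160.4, 162 and 162 TPM in MC38-LM3b. No derivative library reached the lowest parental one. It fell by 0.54 (SE 0.104, adjusted p = 0.00337) in MC38-LM3a and by 0.38 (adjusted p = 0.0129) in MC38-LM3b, and it kept this call under every alternative tried in both comparisons. Slc16a3 (MCT4), the lactate exporter of glycolytic cells and a HIF target, measured 243, 255 and 258 TPM in MC38-P, 224, 219 and 238 TPM in MC38-LM3a and 227, 231 and 232 TPM in MC38-LM3b. Its groups did not overlap either, but the differences of -0.15 (adjusted p = 0.0635) and -0.13 (adjusted p = 0.0705) missed the threshold, which they passed without replicate 3 of MC38-P and MC38-LM3a, at -0.17 and -0.11. With the offsets Slc16a3 fell by 0.36 in MC38-LM3b (adjusted p = 0.00769). The ratio of Slc16a3 to Slc16a1 was not tested.

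Among the members that are glycolytic enzymes, the first steps of glycolysis held the largest rises, Hk1 and Pfkl. Hk1 (NCBI Gene 15275), the broadly expressed hexokinase that traps glucose as glucose-6-phosphate, measured 102, 95.9 and 84.2 TPM in MC38-P, 132, 127 and 155 TPM in MC38-LM3a and 167, 167 and 166 TPM in MC38-LM3b. The 3 lines did not overlap. Hk1 rose by 0.55 (SE 0.0893, adjusted p = 0.00115) in MC38-LM3a and by 0.83 (adjusted p = 6.9e-05) in MC38-LM3b, 1.47 and 1.78 times the parental mean, and with the GC and length offsets by 0.61 and 0.60. Hk2, the hexokinase that HIF induces, did not follow it. Its libraries were at 54.3, 52.8 and 44.0 TPM in MC38-P, 38.9, 39.3 and 59.2 TPM in MC38-LM3a and 62.5, 61.8 and 62.7 TPM in MC38-LM3b. Replicate 3 of MC38-LM3a lay far above the other 2 libraries of its group, and the log2 fold changes were -0.16 (adjusted p = 0.477) and 0.31 (adjusted p = 0.105). Without replicate 3 of MC38-P and MC38-LM3a, Hk2 was lower in MC38-LM3a, at -0.44 (adjusted p = 1.5e-05), and higher in MC38-LM3b, at 0.22 (adjusted p = 0.000787), but with the GC and length offsets and all libraries the values were -0.10 and 0.06 and neither passed.

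Gpi1, glucose-6-phosphate isomerase, rose by 0.25 in both derivatives (adjusted p = 0.00443 and 0.00274), from 288 to 296 TPM in MC38-P to 337 to 358 TPM in the derivatives, and in MC38-LM3b it was at 0.08 (adjusted p = 0.379) after the offsets. Phosphofructokinase, the committed and most regulated step of glycolysis, has liver, muscle and platelet forms, and these moved apart. Pfkl (NCBI Gene 18641), the liver form, measured 140.4, 134 and 129 TPM in MC38-P, 177, 177 and 184 TPM in MC38-LM3a and 197, 194 and 196 TPM in MC38-LM3b. It rose by 0.41 (SE 0.055, adjusted p = 0.000367) and 0.54 (adjusted p = 4.95e-05), and the 3 lines did not overlap.

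Pfkm (NCBI Gene 18642), the muscle form, measured 63.7, 52.8 and 51.9 TPM in MC38-P, 37.9, 36 and 42.5 TPM in MC38-LM3a and 44.7, 41.8 and 41.2 TPM in MC38-LM3b. All derivative libraries lay below all parental ones, and Pfkm fell by 0.52 (SE 0.0976, adjusted p = 0.00268) and 0.39 (adjusted p = 0.00889). Pfkm is the 1 member on chromosome 15 (GRCm38), whose 458 tested genes had median log2 fold changes of -0.54 (MC38-LM3a) and -0.32 (MC38-LM3b), so its fall was about that of its chromosome. Pfkp, the platelet form, was at 105 to 123 TPM in MC38-P, 121 to 150.3 TPM in MC38-LM3a and 149 to 153 TPM in MC38-LM3b. It rose in MC38-LM3b by 0.39 (adjusted p = 0.00473) and was at 0.22 in MC38-LM3a (adjusted p = 0.0862), but after the offsets the calls changed places, with 0.32 (adjusted p = 0.00616) in MC38-LM3a and 0.10 (adjusted p = 0.308) in MC38-LM3b.

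Pfkfb3 and Pfkfb4 make fructose-2,6-bisphosphate, the activator of phosphofructokinase, and both are HIF targets. Pfkfb3 measured 14.3, 14.8 and 11.5 TPM in MC38-P, 11.3, 11.5 and 15.6 TPM in MC38-LM3a and 16.7, 17.3 and 17 TPM in MC38-LM3b. The MC38-LM3b libraries all lay above the parental range, and the MC38-LM3a libraries spread from below it to above it. The MC38-LM3b values gave a log2 fold change of 0.32 (95% interval 0.01 to 0.62, adjusted p = 0.0794), beside -0.08 (adjusted p = 0.713) in MC38-LM3a. Without replicate 3 of MC38-P and MC38-LM3a the values for MC38-LM3a and MC38-LM3b were -0.33 (adjusted p = 0.00104) and 0.21 (adjusted p = 0.00788). With the GC and length offsets and all libraries they were -0.04 and 0.09, and neither passed. Pfkfb4 was between 5.58 and 8.08 TPM in all libraries and passed in neither comparison.

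Of the remaining enzymes of these steps, Tpi1, which interconverts the triose phosphates, rose in MC38-LM3a by 0.34 (SE 0.086, adjusted p = 0.0129), from 1118, 1095 and 1341 TPM to 1583, 1577 and 1345 TPM, and stood at 0.18 in MC38-LM3b (adjusted p = 0.105), where it rose by 0.27 (adjusted p = 4.73e-05) without replicate 3 of MC38-P and MC38-LM3a. The highest parental library and the lowest MC38-LM3a library, both replicate 3, were nearly equal. Aldoa, the main aldolase, was just outside the threshold in MC38-LM3a at 0.18 (adjusted p = 0.0503) and at 0.05 in MC38-LM3b, and passed in MC38-LM3a with the offsets at the same 0.18 (adjusted p = 0.0346). Without replicate 3 of MC38-P and MC38-LM3a it passed in both, at 0.27 (adjusted p = 0.000112) and 0.09 (adjusted p = 0.0377). Aldoc, a brain aldolase at 13.4 to 18.6 TPM, passed in neither. Among the 11 members from hexokinase to triosephosphate isomerase, 4 rose and 1 fell in each derivative, with a median of 0.18 for MC38-LM3a and 0.25 for MC38-LM3b, against 14.1% and 35.6% of all tested genes that rose and 13.8% and 11.2% that fell. With the offsets 6 rose and 1 fell in MC38-LM3a (26.5% and 24.6% of all tested genes), whereas 2 rose and 1 fell in MC38-LM3b (29.3% and 28.3%), and the medians were 0.18 and 0.08.

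**Figure D2:**
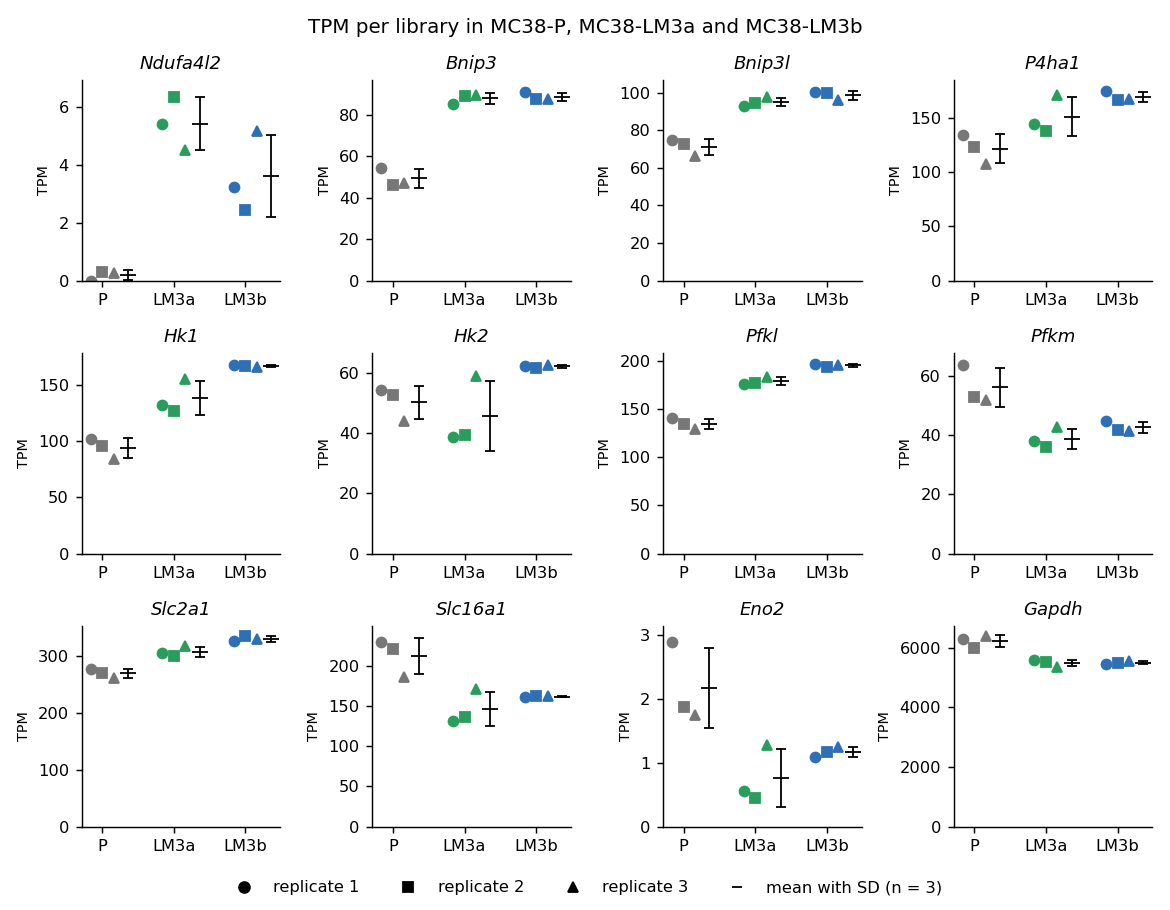
TPM of 12 members in each library (circle, square and triangle for replicates 1 to 3, n = 3 per line) with the mean and SD, each panel from 0. The derivative libraries lie above MC38-P for Ndufa4l2, Bnip3, Bnip3l, P4ha1, Hk1, Pfkl and Slc2a1 and below it for Pfkm, Slc16a1, Eno2 and Gapdh, while replicate 3 of MC38-LM3a stands above the other 2 for Hk2, at 59.2 against 38.9 and 39.3 TPM.

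In the payoff phase of the pathway, from glyceraldehyde-3-phosphate to pyruvate, Gapdh and Eno2 fell in both derivatives. Gapdh (NCBI Gene 14433), the dehydrogenase of this step and often used as a reference gene, was the most abundant member, at 6283, 5999.8 and 6385 TPM in MC38-P, 5573, 5523 and 5362 TPM in MC38-LM3a and 5465, 5492 and 5545 TPM in MC38-LM3b. Each derivative library was below each parental one. It fell by 0.18 in both (SE 0.0473, adjusted p = 0.0157 and 0.0117), which is 0.882 and 0.884 times the parental mean. Centred on the median it was short of the threshold in both (-0.18, adjusted p = 0.389, and -0.40, adjusted p = 0.0566), and under quantile normalization it was at 0.00 in MC38-LM3b. Gapdh has many near-identical processed pseudogenes in the mouse genome, and how reads were divided among copies is not given in the sources used here.

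Pgk1, phosphoglycerate kinase and the first ATP-yielding step, rose by 0.17 (adjusted p = 0.0186) in MC38-LM3a and by 0.14 (adjusted p = 0.0338) in MC38-LM3b, from 1117 to 1180.5 TPM up to 1257 to 1326 TPM, but the second of these was below the 0.21 of the median gene, and after the offsets the values were 0.11 and 0.01, neither past the threshold. Pgam1, phosphoglycerate mutase, was at 1192 to 1259.9 TPM in all libraries, with differences of -0.02 and -0.06, and with the offsets it passed in MC38-LM3b at -0.15 (adjusted p = 0.0158). Pkm, pyruvate kinase, was at 0.14 (adjusted p = 0.075) and 0.11 (adjusted p = 0.0985), and passed in both without replicate 3 of MC38-P and MC38-LM3a, at 0.21 (adjusted p = 0.000393) and 0.15 (adjusted p = 0.00175). Eno1, the main enolase, was at 0.10 (adjusted p = 0.355) in MC38-LM3a and -0.16 (adjusted p = 0.101) in MC38-LM3b, and its libraries spanned 3740.4 to 4904 TPM. Without the same 2 libraries Eno1 rose by 0.22 in MC38-LM3a (adjusted p = 0.00456).

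Eno2 (NCBI Gene 13807), the neuronal enolase, measured 2.89, 1.87 and 1.75 TPM in MC38-P, 0.56, 0.45 and 1.28 TPM in MC38-LM3a and 1.09, 1.17 and 1.25 TPM in MC38-LM3b. Its derivative libraries were all below the parental ones, and it fell by 0.86 (SE 0.187, adjusted p = 0.00628) in MC38-LM3a and by 0.53 (adjusted p = 0.0390) in MC38-LM3b, where 8 of the 18 alternatives lost the call. At this level the log2(TPM + 1) scale understates the change, and the mean TPM was 0.352 and 0.539 times that of MC38-P. Of the 6 members of this phase, 1 rose and 2 fell in each derivative, and their medians were 0.04 and -0.11. Of all tested genes 14.1% rose and 13.8% fell in MC38-LM3a, and 35.6% and 11.2% did so in MC38-LM3b. With the offsets none of the 6 rose and 1 fell in MC38-LM3a (26.5% and 24.6% of all tested genes), and none rose and 3 fell in MC38-LM3b (29.3% and 28.3%).

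At the fork after pyruvate, no member passed in either derivative. Ldha (NCBI Gene 16828), the lactate dehydrogenase subunit that HIF induces, with 5 ACGTG matches before 1 of its 2 annotated starts, measured 2545, 2494 and 2785 TPM in MC38-P, 2895, 3054 and 2592 TPM in MC38-LM3a and 2434, 2476 and 2479 TPM in MC38-LM3b. The MC38-LM3b libraries were the lowest 3 of the 9, and the log2 fold changes were 0.12 (95% interval -0.02 to 0.27, adjusted p = 0.202) and -0.08 (-0.23 to 0.07, adjusted p = 0.336). Without replicate 3 of MC38-P and MC38-LM3a, Ldha was higher in MC38-LM3a, at 0.24 (adjusted p = 0.00042), and at -0.03 in MC38-LM3b. With the offsets and all libraries it was at 0.07 in MC38-LM3a (adjusted p = 0.494). Ldhb, the subunit of oxidative tissues, was at most at 0.4 TPM in any library. Pdk1, which holds pyruvate back from the mitochondria by inhibiting pyruvate dehydrogenase, measured 31.7, 28.1 and 26.2 TPM in MC38-P, 29.3, 30.3 and 37.9 TPM in MC38-LM3a and 33.2, 35 and 33.6 TPM in MC38-LM3b, and its values of 0.17 (adjusted p = 0.285) and 0.24 (adjusted p = 0.092) missed the threshold. Pdk1 passed in MC38-LM3a with the offsets, at 0.20 (adjusted p = 0.00839), and in MC38-LM3b without replicate 3 of MC38-P and MC38-LM3a, at 0.18 (adjusted p = 0.0203).

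HIF targets outside glycolysis included the members with the largest mean rise over both derivatives, Ndufa4l2 and Bnip3. Ndufa4l2 (NCBI Gene 407790), a mitochondrial protein induced by HIF-1 that lowers activity of respiratory complex I, was listed at 0, 0.3 and 0.26 TPM in MC38-P, against 5.41, 6.34 and 4.49 TPM in MC38-LM3a and 3.22, 2.43 and 5.17 TPM in MC38-LM3b. No parental library came near the lowest derivative one. Ndufa4l2 rose by 2.43 (SE 0.209, adjusted p = 2.03e-05) and 1.92 (adjusted p = 7.2e-05) on the log2(TPM + 1) scale, which understates changes at such levels.

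Bnip3 (NCBI Gene 12176), an outer mitochondrial membrane receptor for mitophagy, the removal of mitochondria by autophagy, measured 54.4, 46.2 and 47.2 TPM in MC38-P, 85.0, 89.1 and 89.7 TPM in MC38-LM3a and 90.9, 87.8 and 87.4 TPM in MC38-LM3b. The derivatives overlapped each other and lay well above the parental libraries. Bnip3 rose by 0.83 (SE 0.0746, adjusted p = 2.71e-05) and 0.84 (adjusted p = 1.88e-05), 1.78 and 1.80 times the parental mean, and by 0.68 and 0.59 with the offsets. Its relative Bnip3l (NIX, NCBI Gene 12177), also a mitophagy receptor, was at 74.7, 72.4 and 66.2 TPM in MC38-P, 92.9, 94.5 and 97.5 TPM in MC38-LM3a and 100.3, 99.6 and 96.0 TPM in MC38-LM3b. It rose by 0.41 (SE 0.0656, adjusted p = 0.001) and 0.47 (adjusted p = 0.00033), and by 0.36 and 0.23 with the offsets.

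P4ha1, a catalytic subunit of the hydroxylase that matures collagen, measured 134, 123 and 107 TPM in MC38-P, 144, 138 and 171 TPM in MC38-LM3a and 174, 166 and 167 TPM in MC38-LM3b. It rose by 0.31 (SE 0.0968, adjusted p = 0.0350) in MC38-LM3a and 0.48 (adjusted p = 0.00274) in MC38-LM3b. With the offsets the values were 0.30 and 0.25. In MC38-LM3a the value was 0.13 without replicate 3 of MC38-P and MC38-LM3a, and 10 of the 19 alternatives lost the call. P4ha2, the second subunit of this kind, was at 0.00 and 0.13, with neither past the threshold.

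The classical secreted and surface HIF targets did not pass the test with all libraries as deposited, and Vegfa passed in MC38-LM3a under other settings. Vegfa, the angiogenic growth factor, measured 50.3, 44.0 and 38.6 TPM in MC38-P, 34.1, 31.4 and 43.6 TPM in MC38-LM3a and 51.8, 47.3 and 46.8 TPM in MC38-LM3b. Both derivatives overlapped MC38-P, at -0.28 (95% interval -0.57 to 0.00, adjusted p = 0.131) and 0.14 (-0.15 to 0.42, adjusted p = 0.386), and without replicate 3 of MC38-P and MC38-LM3a Vegfa fell by 0.51 in MC38-LM3a (adjusted p = 0.000243). With the offsets and all libraries it fell there by 0.28 (adjusted p = 0.00592), and it also passed there under quantile normalization and centring. Car9, a carbonic anhydrase used as a hypoxia marker, was low throughout, at 0.75, 0.74 and 0.44 TPM in MC38-P, 1.10, 0.54 and 1.15 TPM in MC38-LM3a and 1.37, 0.69 and 0.99 TPM in MC38-LM3b. Its values of 0.22 (adjusted p = 0.385) and 0.29 (adjusted p = 0.187) did not pass. Car9 reached 1 TPM only in derivative libraries, so it entered the test through the groups in which it was higher. Adm, the vasodilator adrenomedullin, was listed at 0 in 8 libraries and at 0.19 TPM in MC38-LM3b replicate 2.

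Ddit4 (an inhibitor of mTORC1), Mxi1 (a MYC antagonist), Hilpda (a lipid droplet protein) and Ankrd37 lay between -0.36 and 0.19 in both comparisons, and none passed the test. With the offsets Ddit4 fell by 0.23 (adjusted p = 0.0096) and Hilpda rose by 0.18 (adjusted p = 0.0498) in MC38-LM3b, and without replicate 3 of MC38-P and MC38-LM3a both passed there too, at -0.23 (adjusted p = 0.0198) and 0.16 (adjusted p = 0.0295). Of the 11 tested members in this group, 4 rose in each derivative and none fell, with a median of 0.08 for MC38-LM3a and 0.19 for MC38-LM3b. The share that rose in MC38-LM3b, 4 of 11, was close to the 35.6% of all tested genes, and in MC38-LM3a 14.1% of all tested genes rose. With the offsets, 1 member fell in each derivative, while 4 rose in MC38-LM3a and 5 rose in MC38-LM3b. Of all tested genes 24.6% and 28.3% then fell and 26.5% and 29.3% rose.

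Because TPM is per length, isozymes could be added within a library and each expressed as a share of its family. Hk1 made up 65.1% ± 0.583 (SD, n = 3) of hexokinase TPM in MC38-P, with Hk2 as the rest, against 75.3% ± 2.58 in MC38-LM3a and 72.8% ± 0.205 in MC38-LM3b. All 6 derivative libraries, from 72.4% to 77.3%, were above the parental ones, from 64.5% to 65.6%. This ordering held in MC38-LM3a replicate 3 as well, in which Hk2 itself was high. In phosphofructokinase the share of Pfkl went from 44.1% ± 1.17 to 50.9% ± 2.12 and 50.3% ± 0.400, that of Pfkm from 18.3% ± 1.05 to 11% ± 0.265 and 10.9% ± 0.393, and that of Pfkp was 37.6%, 38.1% and 38.7%. P4ha1 took 61.1% ± 1.22 of its pair in MC38-P and 66.1% ± 1.73 and 66.7% ± 0.354 in the derivatives. In the remaining families Aldoa held on average 98.9% to 99.0% of aldolase. In every library Eno1 held at least 99.93% of the pair Eno1 and Eno2, and Ldha at least 99.98% of the pair Ldha and Ldhb. The group means of Pfkfb3 were 66.6% to 70.0% of the pair Pfkfb3 and Pfkfb4. Those of Egln1 were 28.1% to 29.8% of the pair Egln1 and Egln3. The shares are descriptions and were not tested.

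**Figure D3:**
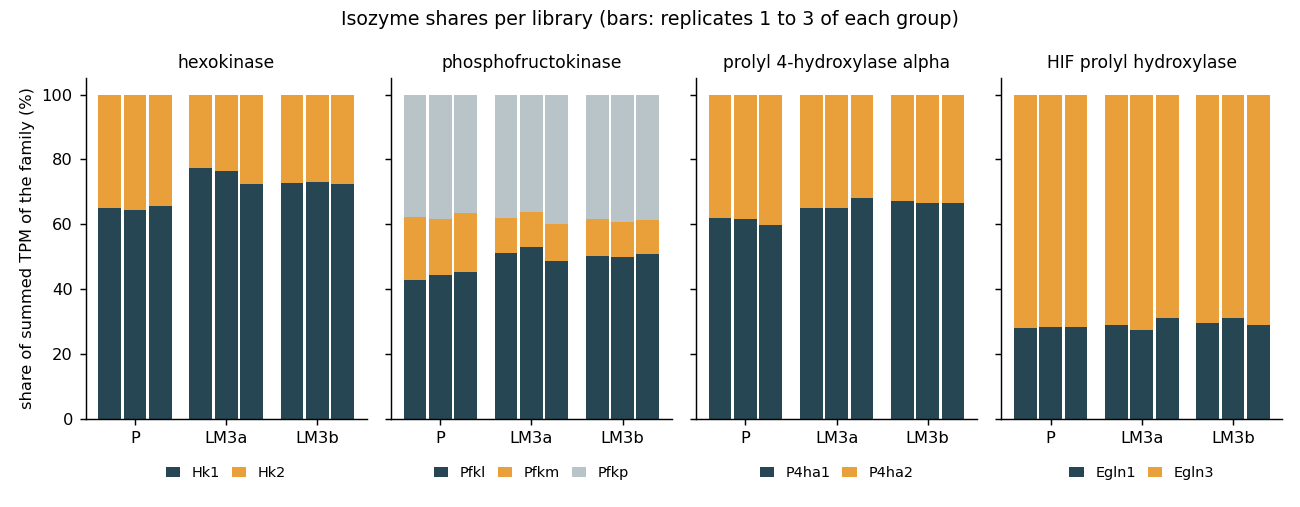
Share of each isozyme in the summed TPM of its family (%), 1 bar per library, with replicates 1 to 3 from left to right in each line. The dark Hk1 part is 64.5% to 65.6% in MC38-P and 72.4% to 77.3% in the derivatives, and the orange Pfkm part is 17.4% to 19.5% in MC38-P and 10.7% to 11.4% in the derivatives.

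Over the 17 genes of the 11 steps from hexokinase to lactate dehydrogenase, glycolytic transcripts summed to 21944 ± 938 TPM for MC38-P, 22842 ± 1040 TPM for MC38-LM3a and 21361 ± 175 TPM for MC38-LM3b (SD, n = 3), or 2.19%, 2.28% and 2.14% of all TPM. Each derivative overlapped MC38-P, and every MC38-LM3b sum was below every MC38-LM3a sum. Within this total, the hexokinase sum went from 144 ± 14.4 TPM to 184 ± 26.6 and 229 ± 0.7 TPM, and phosphofructokinase from 306 ± 20.8 to 352 ± 22.0 and 389 ± 3.31 TPM, without overlap between the lines in either step. Gapdh alone made up 6223 ± 200, 5486 ± 110 and 5501 ± 40.5 TPM of the sums.

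Between the derivatives no member passed the threshold in limma, in a comparison in which only 0.0354% of tested genes rose and 0.0177% fell. At an unadjusted p under 0.05 there were 11 members of 37, beside 38.1% of all tested genes. The median difference of MC38-LM3b from MC38-LM3a was 0.10 for the members and 0.21 for all tested genes. The widest gaps were in Ndufa4l2 (-0.51, 95% interval -0.97 to -0.05), Hk2 (0.46, 0.14 to 0.79), Vegfa (0.42, 0.14 to 0.71), Ankrd37 (-0.42, -0.88 to 0.04) and Pfkfb3 (0.40, 0.09 to 0.70), with adjusted p between 0.119 and 0.149. Across all genes with a length, this difference correlated with transcript length (Spearman's rho 0.61, across genes, which are not independent). With the offsets the gaps were -0.48 for Ndufa4l2, 0.16 for Hk2, 0.24 for Vegfa, -0.36 for Ankrd37 and 0.13 for Pfkfb3, and the median was -0.09 for the members and 0.00 for all tested genes. The count of 0 changed when MC38-LM3a replicate 3 was left out. Without that library, 12 members were higher in MC38-LM3b and 5 lower, against 52.2% and 4.24% of all tested genes. The MC38-LM3a libraries then left both deviated toward short transcripts (-0.55 and -0.51), so these calls cannot be told apart from the length deviation. With the offsets and all libraries no member passed.

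**Figure D4:**
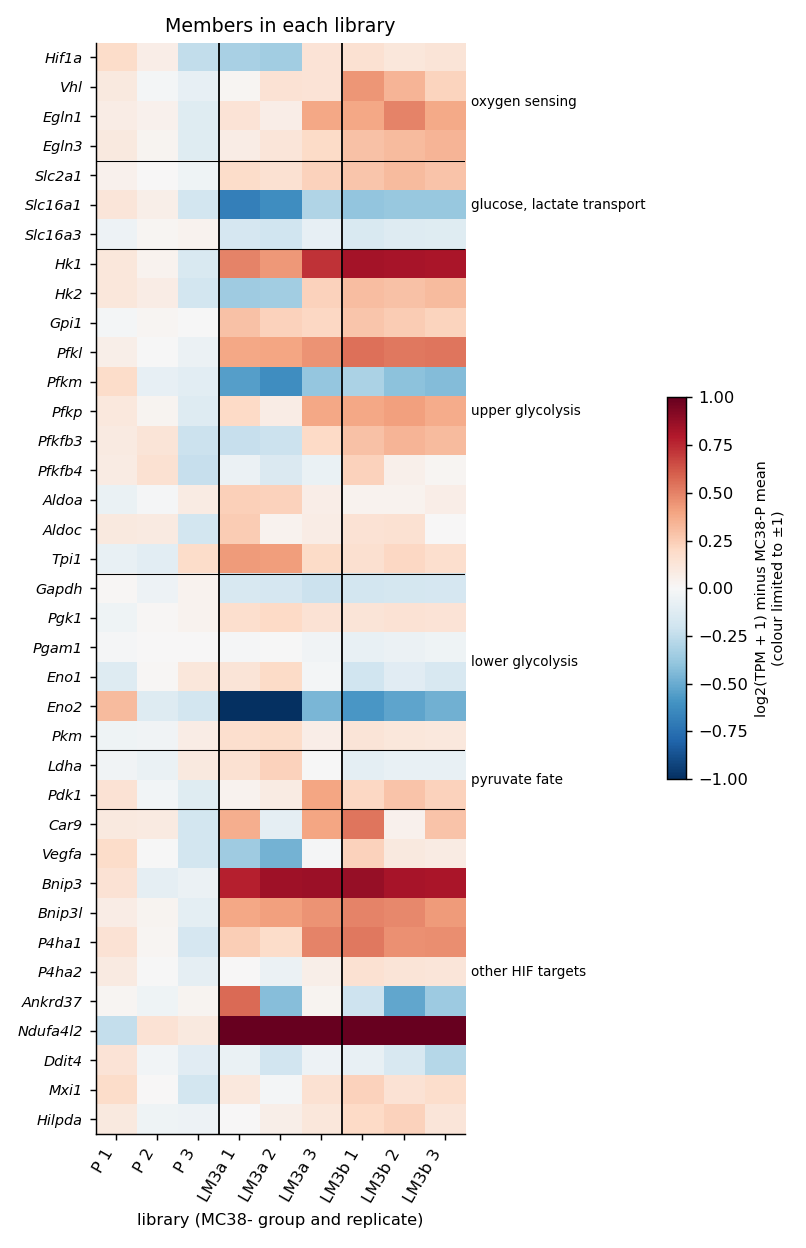
Each tested member in each library as log2(TPM + 1) minus the mean of MC38-P (red higher, blue lower, colours limited to 1 in either direction), with members grouped by role. Bnip3, Ndufa4l2, Hk1 and Pfkl are red and Slc16a1, Pfkm and Eno2 blue in all 6 derivative libraries, while Hk2 and Hif1a in MC38-LM3a replicate 3 differ in colour from the other 2 libraries of that line.

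With the offsets for GC content and transcript length, 14 members rose and 5 fell in MC38-LM3a, where 26.5% of tested genes rose and 24.6% fell, and 10 rose and 8 fell in MC38-LM3b, where 29.3% rose and 28.3% fell. In both derivatives 8 rose (22.7% of tested genes) and 4 fell (21.5%). Of the 9 that rose in both without offsets, 6 also did so with them: Hk1, Pfkl, Bnip3, Bnip3l, P4ha1 and Ndufa4l2. Egln1 and Egln3 joined them. Slc16a1, Pfkm and Eno2 of the 4 that fell also did so with the offsets, Gapdh in MC38-LM3a did not, at -0.17 (adjusted p = 0.15), and Hif1a joined the group. Comparing levels rather than calls, the 6 derivative libraries all lay above the parental ones for 9 members, the same that rose in both, where 19.1% of all tested genes were so ordered, and all below them for 5, the 4 that fell in both and Slc16a3, where 12.3% were.

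**Figure D5:**
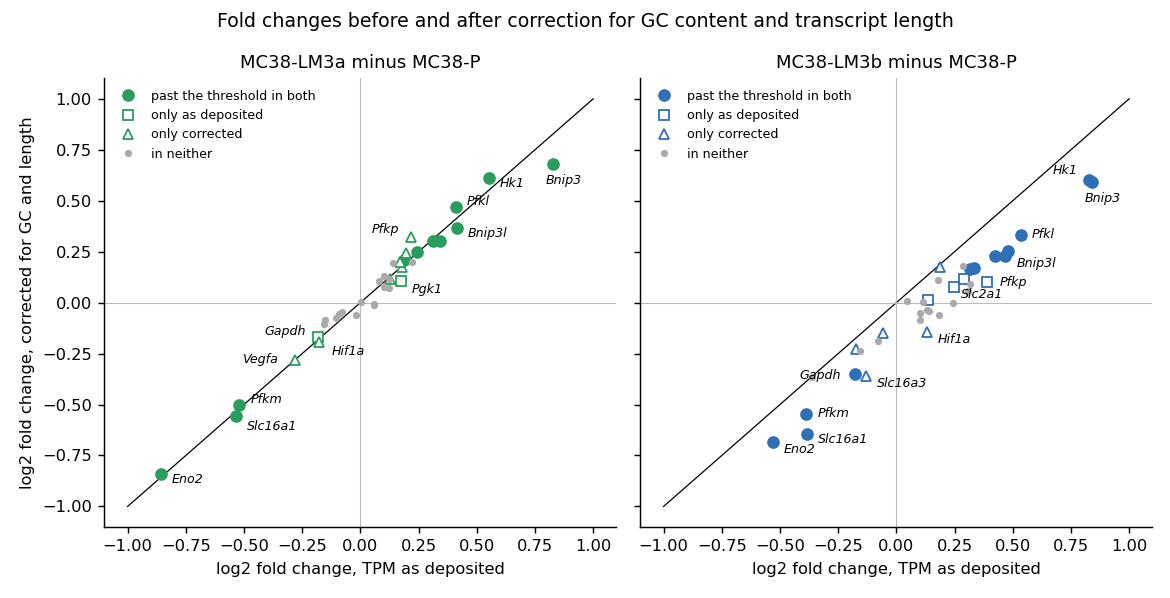
Log2 fold change of 36 members against MC38-P as deposited (horizontal) and with offsets for GC content and transcript length (vertical), with the line of equality. Ndufa4l2 is off the scale at 2.43 and 2.48 in MC38-LM3a and 1.92 and 2.00 in MC38-LM3b. In MC38-LM3a the points follow the line, and in MC38-LM3b most lie below it, with Hif1a moving from 0.13 to -0.15.

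Genes around these pathways were counted in 7 further lists. Among other components of the HIF pathway, Arnt, the partner of HIF-1α, rose in MC38-LM3b by 0.51 (adjusted p = 0.00619) and was at 0.23 in MC38-LM3a (adjusted p = 0.191). Of 11 tested genes only Rbx1, the RING subunit of the Vhl ligase, passed in both, falling by 0.54 and 0.55. Of all tested genes 13.3% rose and 9.07% fell in both. Of the 11, none rose and 2 fell in MC38-LM3a (14.1% and 13.8% of all tested genes). In MC38-LM3b 2 rose and 1 fell (35.6% and 11.2%). Rbx1 lies on chromosome 15. With the offsets Arnt also passed in MC38-LM3a, at 0.24 (adjusted p = 0.00188). Ep300 and Cul2 then passed and were lower in both derivatives, Ep300 at -0.47 and -0.40 and Cul2 at -0.17 and -0.195. Ep300 also lies on chromosome 15, and as deposited it passed in MC38-LM3a at -0.61 (adjusted p = 0.0491). With the offsets 3 of the 11 rose and 3 fell in MC38-LM3a (26.5% and 24.6% of all tested genes). In MC38-LM3b 1 rose and 3 fell with them (29.3% and 28.3%). Of 31 tested hypoxia-induced genes outside the members, 6 rose and 8 fell in MC38-LM3a and 13 rose and 3 fell in MC38-LM3b, with medians of 0.06 and 0.29. Of all tested genes 14.1% rose and 13.8% fell in MC38-LM3a and 35.6% and 11.2% in MC38-LM3b. With the offsets 11 rose and 8 fell in MC38-LM3a (26.5% and 24.6% of all tested genes), and 12 rose and 10 fell in MC38-LM3b (29.3% and 28.3%). The medians with the offsets were 0.05 and 0.09. Passing in both were 5 that rose (Ccng2, Insig2, Ak4, Pgm1 and Plod1) and 3 that fell (Ndrg1, Fos and Angptl4), shares near the 13.3% and 9.07% of all tested genes. Ndrg1, a stress-response gene widely used as a hypoxia marker, measured 41.3, 42.6 and 39.9 TPM in MC38-P, 16.6, 18.1 and 20.8 TPM in MC38-LM3a and 21.9, 21.4 and 19.2 TPM in MC38-LM3b, and fell by 1.12 (adjusted p = 2.35e-05) and 0.95 (adjusted p = 5.41e-05). It too lies on chromosome 15, whose tested genes had medians of -0.54 and -0.32. Ccng2, a cyclin of resting cells, had the largest mean rise of the list over both derivatives, 0.41 (adjusted p = 0.0205) and 0.66 (adjusted p = 0.00112), beside 0.42 and 0.63 for Insig2.

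Among 11 other tested isozymes of glycolysis and gluconeogenesis, Pfkfb1 rose in both derivatives by 0.46 and 0.68, and Eno3 and G6pc3 fell. Of the 11, 1 rose and 4 fell in MC38-LM3a (14.1% and 13.8% of all tested genes). In MC38-LM3b 1 rose and 2 fell (35.6% and 11.2%). With the offsets 1 rose and 6 fell in MC38-LM3a (26.5% and 24.6%), and 1 rose and 7 fell in MC38-LM3b (29.3% and 28.3%). Eno3, the muscle enolase and far above Eno2 in these cells, measured 62.6, 65.0 and 72.0 TPM in MC38-P, 30.5, 31.8 and 29.4 TPM in MC38-LM3a and 28.0, 28.3 and 28.0 TPM in MC38-LM3b, a fall of 1.10 (adjusted p = 5.01e-06) and 1.21 (adjusted p = 1.8e-06). The pentose phosphate pathway, which branches from glucose-6-phosphate, had 5 of 11 tested genes higher in both (Rbks, H6pd, Rpia, Taldo1 and Tkt) and 1 lower, Prps1, which makes activated ribose for nucleotides and fell by 0.65 and 0.56, where 13.3% of all tested genes were higher in both and 9.07% lower. With the offsets Tkt in MC38-LM3b was at 0.00 (adjusted p = 0.979). Rbks, which feeds ribose into the pathway, rose by 1.24 (adjusted p = 4.92e-05) and 1.02 (adjusted p = 0.000128). Glycogen metabolism had 5 of 10 higher in both (Gyg, Ugp2, Pgm2, Pygb and Pgm1) and none lower, led by Gyg, the primer of glycogen synthesis, at 0.61 (adjusted p = 0.000123) and 0.74 (adjusted p = 2.79e-05). Median log2 fold changes were 0.28 and 0.23 for the pentose phosphate genes and 0.27 and 0.44 for the glycogen genes, beside 0.00 and 0.21 for all tested genes. With the offsets they were 0.24 and 0.00 for the pentose phosphate genes and 0.28 and 0.26 for the glycogen genes, beside 0.01 and 0.01 for all. Of 12 tested genes of pyruvate oxidation, Mpc1, a subunit of the mitochondrial pyruvate carrier, rose in both by 0.61 and 0.39. Pdhb, a subunit of pyruvate dehydrogenase, fell by 0.19 and 0.25. Of the 12, 1 rose and 2 fell in MC38-LM3a (14.1% and 13.8% of all tested genes). In MC38-LM3b 3 rose and 1 fell (35.6% and 11.2%). With the offsets 2 rose and 4 fell in MC38-LM3a (26.5% and 24.6%), and 3 rose and 5 fell in MC38-LM3b (29.3% and 28.3%). Pdp1 then also rose in both, and Dlat, Dld and Pdp2 fell in both. Of 3 tested glucose-sensing factors, 2 rose in MC38-LM3b (35.6% of all tested genes). None passed in MC38-LM3a, where 14.1% of all tested genes rose and 13.8% fell. With the offsets 2 rose in MC38-LM3a (26.5% of all tested genes).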

How the data were processed

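RNA of the parental line and both derivatives, in 3 replicates each, was poly(A)-selected and sequenced on the DNBSEQ platform. The authors deposited TPM per gene, without counts. Per the labels' processing notes, HISAT and GRCm39 were used, and the quantification tool is not given in the sources used here. DESeq2, named in the study's methods, needs counts and was not run. Depth is unknown, so no counting intervals are given.

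Genes that reached 1 TPM in 3 or more libraries were tested by limma 3.58.1 in R 4.3.3 on log2(TPM + 1), with 1 mean per group over all 9 libraries, a trended variance and Benjamini-Hochberg adjustment over 11287 genes at 0.05. A DEG also passed an absolute log2 fold change of 1. Offsets for GC content and length came from a loess fit (span 0.3) per library on GENCODE M21 transcripts (98.3% of tested genes, all 37 tested members). The procedure was tested on simulated data. Promoter windows came from RefSeq (GRCm38.p6).

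The members, the lists and the alternatives were chosen with earlier results of these data known. Values in every library were given for DEGs, for up to 6 members with the largest rise and up to 6 with the largest fall past the threshold in both derivatives, and for 12 members chosen for their role. For other lists, counts were given, with DEGs and the largest rise and fall by name, and further members of a list were named after their values were seen. Alternatives changed the pseudocount, the filter, the libraries in the model, the scaling, the offsets and a replicate block, and left out libraries.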

Additional observations from a re-analysis of the deposited data

Results flagged for a closer look

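The derivatives lay on opposite sides of the MC38-P mean for Vegfa and Pfkfb4. For Vegfa, all 3 MC38-LM3a libraries were below the mean of the MC38-P libraries on the log2 scale and all 3 MC38-LM3b libraries above it, and MC38-LM3b exceeded MC38-LM3a by 0.42 (limma, adjusted p = 0.119). For Pfkfb4, which makes the activator of phosphofructokinase and was at 5.58 to 8.08 TPM, the same order held with a difference of 0.19 (adjusted p = 0.247). Neither difference passed the test between the derivatives with all libraries. Without replicate 3 of MC38-P and MC38-LM3a, that of Vegfa was 0.56 and passed (adjusted p = 6.45e-05). With the offsets for GC content and transcript length, the opposite sides were gone: Vegfa was at -0.28 (MC38-LM3a) against -0.04 (MC38-LM3b), a difference of 0.24, and Pfkfb4 at -0.06 and -0.08, a difference of -0.03.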

How the results depend on the processing

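Of the 21 members given with values in every library, Ndufa4l2, Bnip3, Hk1, Pfkl, Bnip3l, Slc16a1 and Pfkm kept their direction and their call against MC38-P in both derivatives under all 19 alternatives. Gapdh in MC38-LM3b was at 0.00 (adjusted p = 0.991) under quantile normalization, and Hif1a in MC38-LM3b turned to -0.15 with the GC and length offsets. The cause was not tested. In MC38-LM3a, 14 members rose and 9 fell without MC38-P replicate 3 and MC38-LM3a replicate 3 (18.4% and 45.2% of all tested genes). In MC38-LM3b 20 rose and 6 fell without them (46.3% and 19%). Centring on the median left 8 members that rose and 6 that fell in MC38-LM3b (22.9% and 26.4% of all genes), quantile normalization 14 and 6 (25.9% and 24.5%), and the offsets 8 that fell (28.3%). Without those 2 libraries 18 members were higher and 5 lower in MC38-LM3b than in MC38-LM3a, where 65% and 6.78% of all genes were. Leaving out 1 library at a time gave 6 to 12 members that rose and 4 to 8 that fell in MC38-LM3a, 11 to 19 and 3 to 6 in MC38-LM3b, and 0 to 12 and 0 to 5 between the derivatives. Of all genes, 10% to 14.2% and 8.57% to 23.2%, 24.5% to 45.1% and 8.07% to 13.8%, and 0% to 52.2% and 0% to 4.24% were so called. The 12 and 5, and the 8 that fell in MC38-LM3a, came without MC38-LM3a replicate 3, and the 6 that rose there without MC38-P replicate 2 or MC38-LM3a replicate 1. Over all alternatives the adjusted p ranged from 9.09e-05 to 0.0926 for P4ha1 in MC38-LM3a, from 0.00468 to 0.0795 for Slc2a1 in MC38-LM3a, from 0.00668 to 0.381 for Vhl in MC38-LM3b and from 0.00112 to 0.125 for Eno2 in MC38-LM3b. Leaving out MC38-P replicate 2 alone lost the call of each of these, and so did leaving out MC38-LM3a replicate 1 for P4ha1 and Slc2a1, MC38-LM3b replicate 1 or 2 for P4ha1, Vhl and Eno2, MC38-LM3b replicate 3 for P4ha1 and Eno2, MC38-P replicate 3 or MC38-LM3a replicate 3 for P4ha1 and MC38-P replicate 1 for Eno2. The alternative with a count test could not be run on TPM, and with no depth the precision of low values such as Ndufa4l2, Eno2 and Car9 is unknown.

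With the replicate number as a block, 7 members rose and 3 fell in MC38-LM3a (9.75% and 9.74% of all genes), 12 rose and 3 fell in MC38-LM3b (26% and 8.43%) and none passed between the derivatives. The block together with the offsets gave 8 that rose and 7 that fell in MC38-LM3b (27.4% and 26.5%). The numbers did not pair the libraries: deviations of same-numbered libraries correlated with r = -0.34, -0.17 and -0.66 between MC38-P and MC38-LM3a, and between 0.035 and 0.075 in the other pairs of lines.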
